A study of Mus musculus with 6 samples.

Results

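Ribosomal proteins of the cytosolic ribosome were examined in kidneys of mice carrying Pkhd1Cre and floxed Pkd2, with and without miR-214. The members were chosen by gene symbol alone, with no check that the gene makes a ribosomal protein. These were symbols that start with Rpl or Rps and a digit, and Rplp0, Rplp1, Rplp2 and Rpsa. The ribosomal S6 kinases (Rps6k) and symbols marked as pseudogenes were left out. The rule took 86 genes out of 20138 that the authors' deposited table lists. They comprise 46 proteins of the large (60S) subunit, 31 proteins of the small (40S) subunit, 8 paralogs or retrocopies (Rpl3l, Rpl7l1, Rpl22l1, Rpl36al, Rpl39l, Rps4l, Rps27l and Rps27rt), and Rps19bp1, a protein that binds Rps19 and is itself no ribosomal subunit. Both genotypes carried Cre under the Pkhd1 promoter and homozygous floxed Pkd2 (Pkhd1Cre; Pkd2 F/F), and were collected at postnatal day 35. One group of 3 animals, called Pkd2-KO, had no further allele, and the other group of 3, called Pkd2-miR-214-KO, also carried miR-214null. Pkhd1 is expressed mainly in tubule epithelium. Cells of these whole kidneys without Cre activity may retain Pkd2, among them interstitial, vascular and immune cells and any such tubule cells. Which tubule segments lost Pkd2 was not measured here. The question put to the data is how loss of miR-214 alters transcript levels in such kidneys.

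A cytosolic ribosome holds a single copy of nearly every ribosomal protein, so their genes are usually expressed in step. Their messenger RNAs are short and abundant, and they begin with a C followed by an unbroken run of pyrimidines, the terminal oligopyrimidine or TOP motif. Through that motif the mTORC1 kinase and the RNA-binding protein Larp1 control how much of the set is translated. Growing cells need a supply of ribosomes, which was not measured here.

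The values are the authors' fitted log2 folds, positive where expression was higher in Pkd2-miR-214-KO, with mean levels as log2 CPM (counts scaled to a common library total) over the 6 libraries. The error given after each fold is an approximate standard error (SE) computed from the fold and its likelihood ratio, with n = 3 animals per genotype. Values per animal and the depth of each library were not analysed here, so the order of the single animals and any overlap between the groups are not described. In whole tissue, fewer cells of a type and less RNA per cell cannot be told apart. The deleted locus Mir214 had a fold of -7.62 ± 1.08 on the log2 scale in the authors' deposited table, the value from which the sign of all folds was read. Xist, the X-inactivation RNA of female cells, had 10.21 ± 2.36 (adjusted p = 0.0168) in the authors' deposited table, and the labels do not give the sex of the animals. The 5 kidney tubule markers examined (Umod, Slc34a1, Lrp2, Slc12a3 and Aqp2) had mean log2 CPM from 8.39 to 11.40 in the authors' deposited table, so none of these segment markers was absent. Their log2 folds were -0.35 ± 0.43 for Umod, -0.62 ± 0.49 for Slc34a1, -0.54 ± 0.44 for Lrp2, -0.67 ± 0.45 for Slc12a3 and 0.05 ± 0.36 for Aqp2 in the authors' deposited table, each with an adjusted p of 1 in the edgeR likelihood ratio test. Of these markers of tubule segments, 4 of 5 thus had negative folds, and their part in the folds of the ribosomal protein genes was not tested.

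No ribosomal protein gene passed the test between the genotypes. Of the 86 members, 0 had an adjusted p under 0.05 in the authors' deposited edgeR likelihood ratio test, where 0.124% of all genes did (0.104% higher and 0.0199% lower). An unadjusted p under 0.05 was found for 0 members in the authors' deposited edgeR test, and for 4.82% of all genes (3.1% higher and 1.71% lower). The smallest unadjusted p among the members was 0.155 in the authors' deposited table, and each adjusted p was 1. The folds nevertheless lay mostly on one side of 0. Of the 86 members, 78 had a positive log2 fold and 8 a negative one, beside 49.8% positive over all genes in the authors' deposited table. The median log2 fold of the members was 0.21, or 1.15-fold, beside a median of 0.00 over all genes. The middle of the distribution was narrow, with a lower quartile of 0.13 and an upper quartile of 0.30 on the log2 scale. All 86 genes were measured in the same 6 libraries, so their folds are not independent of each other and the count of positive folds carries no test.

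**Figure D1:**
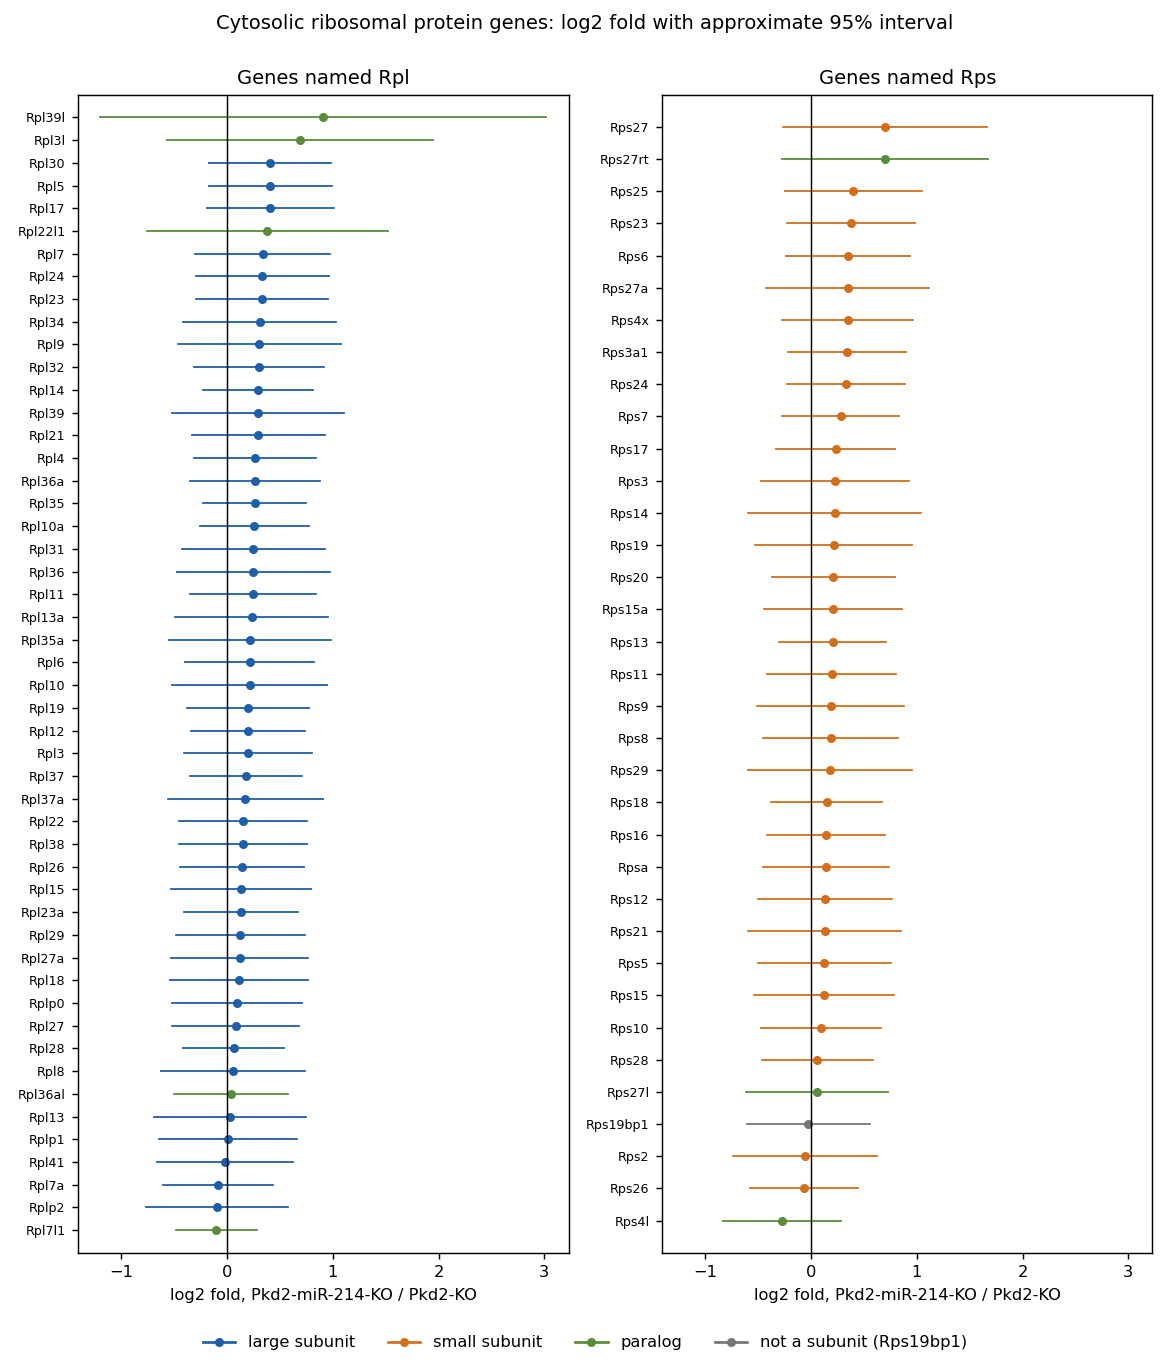
Log2 fold of 85 of the 86 genes (horizontal axis, Pkd2-miR-214-KO over Pkd2-KO) as points with approximate 95% intervals as lines, genes ordered by fold, genes named Rpl on the left and Rps on the right. All 85 intervals drawn include 0, and 77 points lie to the right of it.

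The precision of these folds was lower than the genes' abundance alone would give. The 77 subunit genes all had mean log2 CPM between 7 and 10 in the authors' deposited table, and their median SE was 0.31, beside 0.24 for the 1659 other genes in that range of levels. Of those other genes, 88.6% had a smaller SE than the median subunit gene. Each of the 86 approximate 95% intervals included 0. For 74 of the 86 members the interval stayed within a 2-fold change on either side, as it did for 57.5% of all genes, so larger changes lie outside the interval for those 74. A log2 fold of 0.21 in a single member was not detectable at an SE of that size.

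Both subunits had similar medians. The 51 genes named Rpl had a median log2 fold of 0.22 and the 35 named Rps one of 0.19. Among the true subunits, 43 of 46 large subunit genes and 29 of 31 small subunit genes had positive folds in the authors' deposited table. No test of the difference between the subunits was made.

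In the large subunit, the highest folds belonged to Rpl30, Rpl5 and Rpl17. Rpl30, a protein at the interface between the subunits, had a fold of 0.41 ± 0.29 (p = 0.163) on the log2 scale in the authors' deposited edgeR table. Rpl17, which lies at the mouth of the tunnel through which the new peptide leaves, had 0.41 ± 0.31 in the authors' deposited table. Rpl5 and Rpl11 bind the 5S ribosomal RNA, and this particle also binds Mdm2, the ubiquitin ligase that limits p53. Rpl5 had a log2 fold of 0.41 ± 0.30 with an approximate 95% interval from -0.17 to 0.99, and Rpl11 had 0.25 ± 0.30, in the authors' deposited table. The 9 proteins listed around the exit tunnel (Rpl4, Rpl17, Rpl19, Rpl22, Rpl23a, Rpl26, Rpl31, Rpl35 and Rpl39) all had positive folds, from 0.14 to 0.41, with a median of 0.25 in the authors' deposited table. In the large subunit as a whole, 43 of 46 genes were positive, with a median of 0.22.

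The stalk of the large subunit recruits the elongation factors. Its 4 listed genes had a median log2 fold of 0.05, beside 0.22 for the 46 large subunit genes, in the authors' deposited table. Among them Rpl12 lay near the large subunit median, and the difference has no test here. Rplp0, the base of the stalk, had 0.09 ± 0.31, and Rpl12, which sits beside it, 0.20 ± 0.27 in the authors' deposited table. The acidic proteins Rplp1 and Rplp2 had 0.01 ± 0.33 and -0.09 ± 0.34 in the authors' deposited table. The large subunit genes with negative folds were Rplp2, Rpl7a (-0.08 ± 0.27) and Rpl41 (-0.02 ± 0.33), whose coding sequence of 75 bases is the shortest among the subunits. Rpl41 encodes a very short basic peptide at the interface of the subunits. None of these values differed from 0 by more than its SE, which also held for most members of the set.

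In the small subunit, Rps27 stood above the rest with a fold of 0.70 ± 0.49 (p = 0.155) on the log2 scale in the authors' deposited edgeR table. Rps27 is a zinc finger protein of the small subunit, and its approximate 95% interval from -0.26 to 1.66 was also the widest among the subunits. Rps27rt, a retrocopy, had an almost identical fold of 0.70 ± 0.50 and an almost identical mean log2 CPM of 8.05 beside 8.06 in the authors' deposited table. Rps27 lies on the minus strand at chr3:90212522-90213651 and Rps27rt on the minus strand at chr9:114982366-114982739 (GENCODE M21, the assembly of mm10). Their coding sequences of 252 bases are the same at 252 of 252 positions, and the annotated transcripts, of 345 and 374 bases, share an unbroken run of 341 bases. The shared coding sequence, without its stop codon and with no position that differs and hence no capitals, is shown because reads that fall within it cannot be assigned to either gene.
Rps27 and Rps27rt: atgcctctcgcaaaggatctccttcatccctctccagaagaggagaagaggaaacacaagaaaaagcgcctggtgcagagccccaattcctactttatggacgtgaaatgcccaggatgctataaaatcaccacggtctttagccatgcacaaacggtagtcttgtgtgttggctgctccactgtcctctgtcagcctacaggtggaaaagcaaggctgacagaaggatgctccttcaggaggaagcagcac
How far the 2 entries are separate measurements is therefore uncertain, and how the authors' counting treated such reads is not given in the sources used here.

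Other small subunit genes with high folds were Rps25, Rps23 and Rps6. Rps25, which some viral and cellular internal ribosome entry sites need, had 0.40 ± 0.33, and Rps23, a protein of the decoding centre, had 0.38 ± 0.31 in the authors' deposited table. Rps3a1 had 0.34 ± 0.29 (p = 0.235) in the authors' deposited edgeR table. Rps6, the protein phosphorylated by the S6 kinases downstream of mTORC1, had 0.35 ± 0.30 in the authors' deposited table. The 4 genes listed at the channel for messenger RNA had a median of 0.003, beside 0.21 for the 31 small subunit genes. Of them Rps3 lay above the small subunit median, and the difference was not tested. Rps3 and Rps2 line the entry of that channel and had 0.23 ± 0.36 and -0.05 ± 0.35 in the authors' deposited table. At its exit, Rps26 had -0.06 ± 0.26 and Rps28 0.06 ± 0.27 in the authors' deposited table. Rps2 and Rps26 were the 2 small subunit genes with negative folds. Rpsa, the laminin receptor protein of the small subunit, had 0.14 ± 0.31 at a mean level of 9.65 log2 CPM in the authors' deposited table.

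Genes of Diamond-Blackfan anaemia, a failure of red cell production caused by loss of a copy of a ribosomal protein gene, are spread over both subunits. Of the 19 listed, 18 had positive folds, with a median of 0.22 beside 0.21 for all members, and 0 had an adjusted or an unadjusted p under 0.05 in the authors' deposited table. Rps19, the gene most often mutated in that disease, had 0.22 ± 0.38, and Rps24 had 0.33 ± 0.28 in the authors' deposited table.

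The levels within the set differed widely per length of transcript. Mean CPM per kilobase of the annotated principal transcript had a median of 502.4 over the 77 subunits. Rplp1 was highest with 1455 CPM per kilobase, followed by Rpl41 with 1191 and Rps12 with 1067. Rps20 was lowest with 57.2, a value that rests on an annotated transcript of 3706 bases, and without it the lowest was 200.2 for Rpl37. The other values also depend on the length of the annotated transcript chosen, 835 bases for Rpl37. These levels have no error over animals, and differences between neighbouring genes were not tested. By mean log2 CPM, not divided by length, Rplp0 (9.85), Rpl4 (9.71) and Rpsa (9.65) headed the set in the authors' deposited table. Together the 86 genes made up 3.13% of the summed mean CPM of the table.

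**Figure D2:**
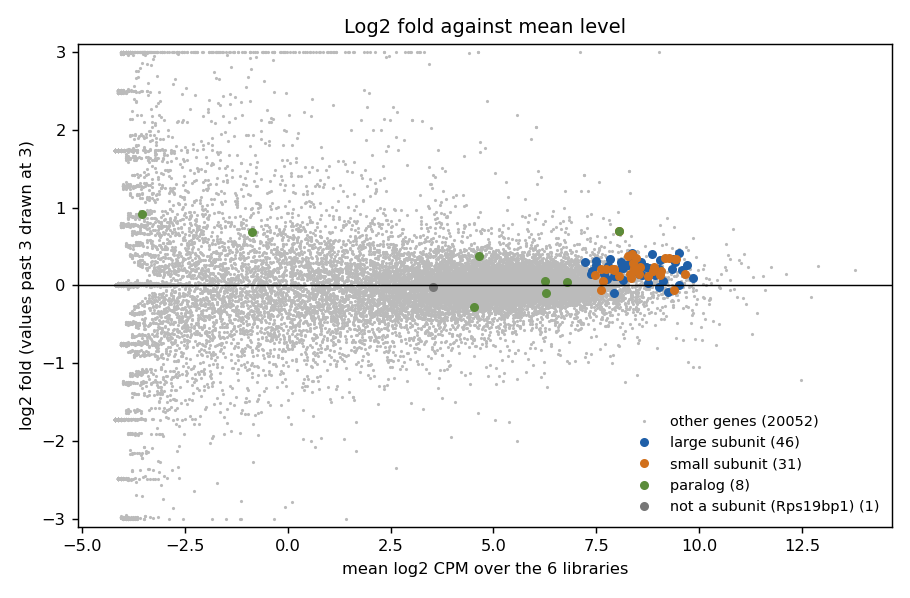
Log2 fold (vertical axis, values past 3 drawn at 3) against mean log2 CPM (horizontal axis) for all genes of the table, with the subunits and paralogs coloured. The 77 subunits form a tight group between 7 and 10 log2 CPM, most of them just above 0, while Rpl39l and Rpl3l lie at low levels.

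Apart from Rps27rt, the paralogs had lower mean levels than the subunits, from -3.54 to 6.79 log2 CPM in the authors' deposited table. Rpl39l, a paralog of Rpl39 typical of testis, had the highest fold of all members, 0.91 ± 1.07, but at a mean level of -3.54 log2 CPM in the authors' deposited table, where fitted folds depend on the prior count. Rpl3l, the paralog of Rpl3 typical of heart and skeletal muscle, had 0.69 ± 0.64 at a mean level of -0.88 log2 CPM in the authors' deposited table. Both proteins replace their parent in those tissues. The coding sequences of Rpl39 and Rpl39l, identical at 130 of 153 bases (85.0%), are printed with the differing bases in capitals and without stop codons, since this pair, unlike Rps27 and Rps27rt, differs at 23 positions spread along the sequence.
Rpl39: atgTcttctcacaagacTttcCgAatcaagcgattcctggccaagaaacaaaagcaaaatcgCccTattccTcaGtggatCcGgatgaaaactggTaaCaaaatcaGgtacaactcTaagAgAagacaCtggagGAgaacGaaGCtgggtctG
Rpl39l: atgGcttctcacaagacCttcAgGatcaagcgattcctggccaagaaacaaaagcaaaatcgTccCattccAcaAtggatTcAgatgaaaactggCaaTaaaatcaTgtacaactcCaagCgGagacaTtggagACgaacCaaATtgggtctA
Rpl39 (chrX:37082520-37085402, minus strand) had a fold of 0.30 ± 0.41 at a mean level of 7.22 log2 CPM in the authors' deposited table, and Rpl39l lies at chr16:10170226-10174911 on the plus strand.

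Rpl22l1, which can take the place of Rpl22, had a log2 fold of 0.38 ± 0.58, beside 0.15 ± 0.31 for Rpl22, in the authors' deposited table. Their coding sequences are 67.5% identical. Rps27l, 76.2% identical to Rps27 and a gene induced by p53, had 0.06 ± 0.34 in the authors' deposited table. Rpl36al, 87.7% identical to Rpl36a, had 0.04 ± 0.27 beside 0.26 ± 0.31 for Rpl36a in the authors' deposited table. In each of these pairs the fold of either gene lay inside the approximate 95% interval of its partner, and no test of the difference was made. Rpl7l1, which acts in assembly of the large subunit, had -0.10 ± 0.20, and Rps4l, which GENCODE M21 annotates as a transcribed processed pseudogene, had the lowest fold of the set, -0.27 ± 0.28, in the authors' deposited table. Rps19bp1, no subunit, had -0.02 ± 0.30 at a mean level of 3.54 log2 CPM in the authors' deposited table.

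The 4 subunit genes on the X chromosome, Rps4x, Rpl10, Rpl36a and Rpl39, were examined apart because of the difference in Xist. Their log2 folds were 0.35 ± 0.32, 0.21 ± 0.37, 0.26 ± 0.31 and 0.30 ± 0.41 in the authors' deposited table. Their median of 0.28 compares with 0.20 for the 73 autosomal subunits, and the difference between these medians has no test here. A difference in sex between the genotypes could not be told apart from the loss of miR-214 here. The part of sex in the folds of the set was not tested.

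The position of a subunit gene within the set followed the base composition of its coding sequence. Across the 77 subunits the log2 fold correlated with the GC content of the coding sequence with Pearson's r = -0.62 and Spearman's rho = -0.69. The relation was seen in both subunits, with rho = -0.66 over the 46 large and rho = -0.72 over the 31 small subunit genes, and without Rps27 it was r = -0.66 and rho = -0.69. These are descriptions across genes measured in the same 6 libraries, and genes are not independent replicates. The 19 subunits with coding GC below 50%, such as Rpl30, Rpl5, Rps24 and Rps4x, all had positive folds, from 0.15 to 0.41, with a median of 0.33. The 37 subunits from 50 to 55% had a median of 0.20. The 21 subunits at 55% and above, among them Rplp0, Rplp1, Rplp2, Rps2, Rpl8 and Rpl13, had a median of 0.11. By contrast, the fold had hardly any relation to coding length (rho = 0.07), to mean log2 CPM (rho = 0.05) or to the number of annotated pseudogenes named after the gene (rho = -0.02). With the length of the annotated transcript rho was 0.18.

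Other genes moved with base composition in the same direction. Among 1606 other coding genes in the same range of levels, rho with coding GC was -0.29, and the median log2 fold was 0.08 below 50%, -0.02 from 50 to 55% and -0.06 at 55% and above. In each of these ranges of GC the median of the subunits was higher than that of the other genes. The subunits' coding GC, with a median of 52.7%, was close to the 52.1% of the other genes, while their median coding length of 456 bases was far below the 1422 bases of the others. When a straight line on coding GC, fitted over all 6627 other coding genes with a mean log2 CPM of at least 5, was subtracted, the median of the 77 subunits was 0.21, and 72 folds were positive and 5 negative. The slope of that line was -0.095 per 10 points of coding GC. With a slope of that size and a median GC so close to that of other genes, the subtraction could hardly move the subunits' median. The part of base composition in the order within the set was not tested.

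**Figure D3:**
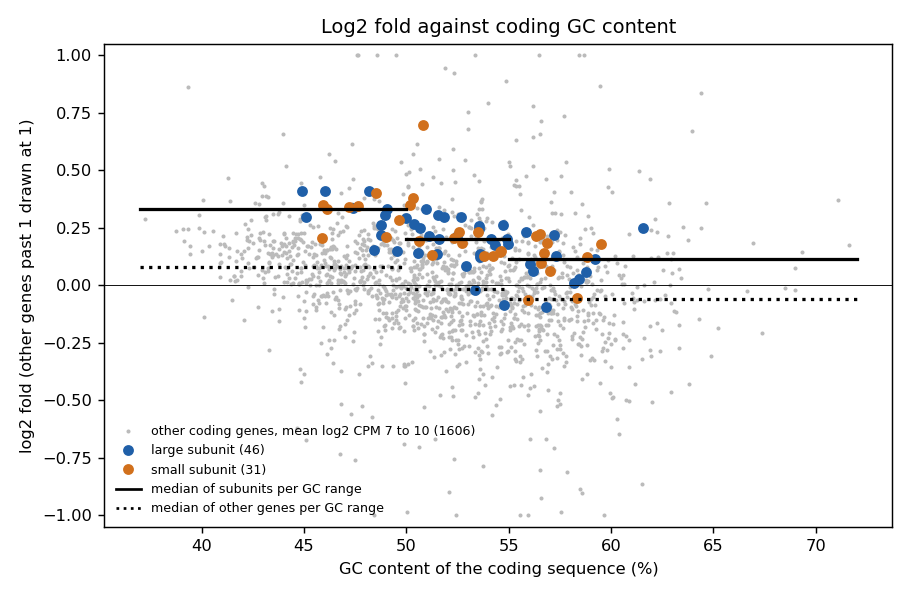
Log2 fold (vertical axis, other genes past 1 drawn at 1) against the GC content of the coding sequence (horizontal axis, %) for the 77 subunits and for 1606 other coding genes with mean log2 CPM from 7 to 10, with medians per GC range as lines. The subunit medians run from 0.33 below 50% to 0.11 at 55% and above, and lie above the medians of the other genes in each range.

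The annotated starts were searched for the TOP motif, taken as a C at the start followed by at least 4 bases that are each C or T, on the coding strand. RefSeq windows on GRCm38.p6 were at hand for 57 of the 77 subunits, and 13 of these (22.8%) had the motif exactly at an annotated start, beside 3.03% of the 14279 genes with a window among those of the table. Within 10 bases of the start on either side the shares were 59.6% and 36.4%. An annotated start can miss the true one by some bases, so no match says only that these letters are not at that position. As examples from both ends of the range of folds, windows from 12 bases before the start are printed with the pyrimidine run from the start in capitals.
Rps27 (chr3:90213631-90213660, minus strand): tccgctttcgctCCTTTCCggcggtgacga
Rps6 (chr4:86857350-86857379, minus strand): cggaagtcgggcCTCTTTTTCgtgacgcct
Rpl14 (chr9:120571505-120571534, plus strand): cgggccctctctCTTCTCgctgagcgccgc
Rpl35 (chr2:39005114-39005143, minus strand): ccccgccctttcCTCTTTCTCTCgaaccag
Rpl28 (chr7:4792953-4792982, plus strand): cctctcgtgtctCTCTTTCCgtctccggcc
Rplp2 (chr7:141447639-141447668, plus strand): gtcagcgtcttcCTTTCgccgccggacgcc
The 13 subunits with the motif at an annotated start had a median log2 fold of 0.15, ranging from -0.09 for Rplp2 to 0.70 for Rps27, and the 44 without it one of 0.21, ranging from -0.08 to 0.41. The ranges of both groups overlapped, and no test between them was made.

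Sites for the deleted microRNA are scarce in this set. The mature miR-214-3p of the mouse (RefSeq, GRCm38.p6) is printed with its seed, bases 2 to 8, in capitals, since the complement of that seed was searched.
mmu-miR-214-3p: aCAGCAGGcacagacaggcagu
Of 85 members with an annotated 3' untranslated region, 4 (4.71%) held the matching 7-base site CCTGCTG in the longest one, beside 21.3% of 16900 genes. The regions themselves were short, with a median of 160 bases beside 1041 bases. The genes with a site include Rps24, Rps15a and Rpl37a, and the log2 folds of the 4 ran from 0.17 to 0.33 with a median of 0.21 in the authors' deposited table, the same as the median of all members. A match is a description of letters and not evidence of a working site.

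Some proteins of the cytosolic ribosome have symbols that the rule does not take. Fau encodes a small subunit protein fused to a ubiquitin-like protein, and Gnb2l1 encodes the small subunit scaffold Rack1. Their log2 folds were 0.30 ± 0.39 and 0.11 ± 0.28 in the authors' deposited table. Of the 3 such genes listed, 2 had a positive and 1 a negative fold, with a median of 0.11.

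Genes that make, staff or control the ribosome were compared beside the members. In none of the lists did a gene reach an adjusted p under 0.05 in the authors' deposited edgeR test. Unadjusted p under 0.05 was found for Rrs1 and Taf1d alone among the lists of this paragraph. Of 33 translation factors 22 had positive folds (median 0.07), with the initiation factor gene Eif3e the highest at 0.47 ± 0.28 in the authors' deposited table. Of 37 genes of ribosome biogenesis 15 were positive (median -0.04). The assembly factor genes Rrs1 and Bysl, with 0.46 ± 0.23 and -0.49 ± 0.27 in the authors' deposited table, lay at the ends of that list. Of 19 genes of RNA polymerase I and its initiation factors, which transcribe ribosomal RNA, 7 were positive (median -0.06), and Taf1d had 0.71 ± 0.25 (adjusted p = 0.398) in the authors' deposited edgeR table. Of 30 genes of the TOR pathway and TOP messenger RNA control 17 were positive (median 0.02). The kinase gene Mtor itself had -0.29 ± 0.21 and its inhibitor Deptor 0.29 ± 0.22 in the authors' deposited table. Of 27 genes that handle free or stalled ribosomal parts, 13 were positive (median -0.01).

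The mitochondrial ribosome, built from a separate set of nuclear genes, lay on the other side of 0. Of its 77 proteins 16 had positive and 61 negative folds, with a median log2 fold of -0.07 and 0 genes with an adjusted or an unadjusted p under 0.05 in the authors' deposited table. Its folds correlated with coding GC as well (rho = -0.52). The difference between the cytosolic and mitochondrial sets has no test here, and both are given as counts.

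**Figure D4:**
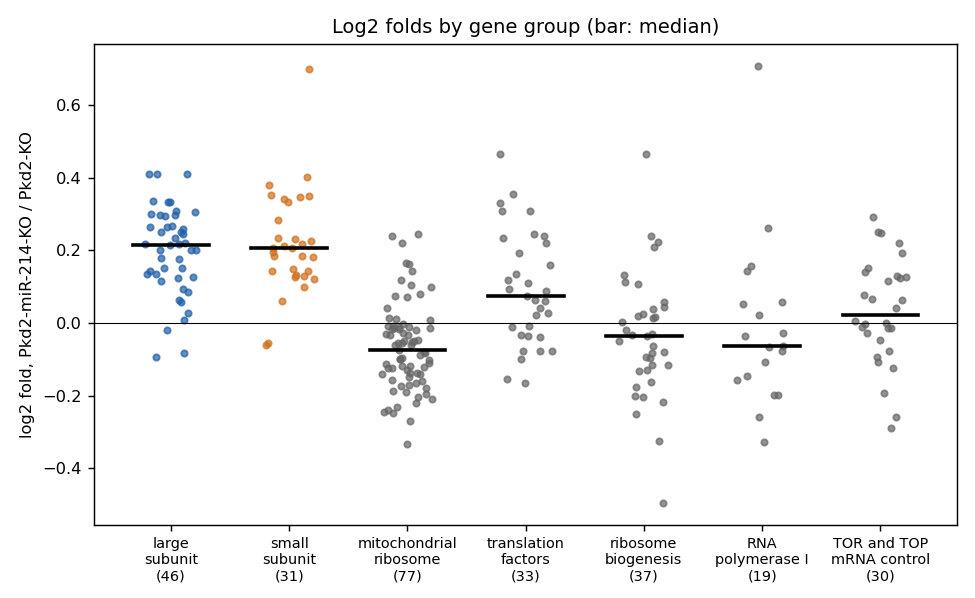
Log2 folds (vertical axis) of single genes as points and their median as a bar, for the large and small subunits, the mitochondrial ribosome and lists of translation factors, ribosome biogenesis, RNA polymerase I and TOR and TOP messenger RNA control, with the number of genes in brackets. The subunit medians lie at 0.22 and 0.21, and those of the other groups between -0.07 and 0.07.

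Lists of genes from other cells and of proliferation were set beside the members. All 17 listed genes of red cells and granulocytes had positive folds, with a median of 1.63, and 11 had an unadjusted and 0 an adjusted p under 0.05 in the authors' deposited table. Over all genes the unadjusted share was 4.82%. Ngp, Mpo and Camp, with the smallest p of that list, had low mean levels of -0.48, -2.28 and -1.69 log2 CPM in the authors' deposited table. All 20 listed proliferation genes had negative folds, with a median of -0.71, and 0 had an adjusted or an unadjusted p under 0.05 in the authors' deposited table. Both lists were chosen with earlier results of these data known, so their counts of each sign carry no test. The levels of these genes in each genotype were not analysed here, and their part in the folds of the ribosomal protein genes was not tested.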

How the data were processed

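Whole kidneys of 3 Pkd2-KO and 3 Pkd2-miR-214-KO mice were profiled by RNA sequencing. TopHat2 (2.0.12), edgeR and the build mm10 are listed, without settings, per the submitters' processing notes. The labels' protocols name a stranded total RNA kit, whereas polyadenylated RNA is mentioned for the series. Per the file headers, the deposited table holds a log2 fold, a mean log2 CPM, a likelihood ratio (a score on 1 degree of freedom), an unadjusted p-value and an FDR for each of 20138 genes, all made by the authors. The deposited FDR equals the Benjamini-Hochberg adjustment recomputed from the deposited p-values, with a largest difference of 5.1e-14, and is called the adjusted p. Values of a few genes are not reported here by name. Counts per library were not used here, so depth is unknown.

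No new test per gene was made. The approximate SE is the size of the fold divided by the square root of the likelihood ratio, and the 95% interval takes the normal quantile. It is poor for genes of low count. P-values measure the spread between these animals as the authors fitted it. Lengths, coding GC content and sites came from the shortest principal transcript of GENCODE M21, and the longest 3' untranslated region served for sites. GENCODE symbols matched 94.6% of the genes and all 86 members. Promoter starts and the microRNA came from RefSeq (GRCm38.p6). Identity was taken over a global alignment (Biopython 1.88). The line on GC content was tested on simulated data. Software comprised scipy 1.17.1, numpy 2.4.6, pandas 2.3.3, Python 3.11.15 and, for plots, matplotlib 3.10.9.

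Members and lists were chosen with earlier results of these data known, and the 5 kidney markers were added after the data were seen. Named genes were the 8 members with the smallest p, the 4 highest and 4 lowest folds, the 3 highest and 3 lowest levels, the stalk, 5S, messenger RNA channel, paralog and X-linked members, members on which a sequence comparison turns, and of other lists those past the threshold and up to 3 with the smallest p. Rpl8, Rpl13 and the other subunits named outside this rule were chosen after their values were seen. Of the members, 61 have at least 1 annotated pseudogene named after them, up to 24, and reads shared with such copies make their values uncertain.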

Additional observations from a re-analysis of the deposited data

How the results depend on the processing

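The count of members with an adjusted p under 0.05 was 0 with the Benjamini-Yekutieli adjustment, with adjustment over the 14520 genes of mean log2 CPM of at least 0, and over the subunits only. With every deposited adjusted p of the members at 1, and with 0 members at an unadjusted p under 0.05 to begin with, the stricter adjustment and the smaller sets could give no other count, so they say nothing about stability. For the median log2 fold, some alternatives took only the subunits. Another replaced the median with a mean weighted by the inverse square of the approximate SE. Under 7 alternatives each, the value ranged from 0.18 to 0.21 for the members. It ranged from 0.18 to 0.22 for the Rpl genes and from 0.18 to 0.21 for the Rps genes, and no sign changed. In each range the lowest value was the weighted mean. Some of the alternatives could hardly move the value: the median of all genes that was subtracted is 0, and Rps27 is not among the Rpl genes. The line on coding GC, with a slope of -0.095 per 10 points, could hardly move it either. Subtraction of the line on coding GC and leaving out Rps27 were chosen after seeing the data. No paired analysis was possible because the labels give the animals no shared numbers and values per animal were not used, and for the same reason no animal could be left out in turn.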

Other observations

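Beside the genes described, 7 entries marked as ribosomal protein pseudogenes are in the authors' deposited table. Of these, 5 had positive and 2 negative log2 folds, with a median of 0.28 and a range from -0.74 to 0.99, and their median approximate SE of 0.66 was above the 0.31 of the members. None passed the adjusted threshold or had an unadjusted p under 0.05 in the authors' deposited table.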
